A study of Mus musculus with 24 samples.

Results

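The neutrophil granule genes are Elane, Mpo, Ltf, Camp, Ngp, Mmp8, Chil3, S100a8, S100a9 and Retnlg, 10 of the 22911 gene symbols that probes of the array matched. The genes were selected on measured values of these arrays, the levels at 90 against 10 weeks in each tissue, in which single arrays of aged mice stood apart. Their age differences are therefore given as a description, with no test. A gene's probes are those whose systematic name, without its version, belongs to the RefSeq transcripts of that symbol, and the brightest probe stands for the gene. Each of the 10 genes had 1 such probe. Total RNA of white adipose tissue (WAT), kidney, liver and lung was hybridized to 24 one-colour Agilent arrays. All mice were C57BL/6J males, 10 weeks old (young) or 90 weeks old (aged), with 3 arrays per age and tissue, and no treatment or altered allele is given for either age. The comparison of ages asks which transcripts differ between young and aged tissue. Arrays are named here by age, tissue and replicate number, and the aged livers carry the numbers 1, 2 and 4. The 6 arrays of a tissue, of both ages, lay on 1 slide, so tissue and slide cannot be told apart.

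Levels are log2 signals minus the log2 of the array's 75th percentile signal, so 0 marks that percentile and a step of 1 is a 2-fold step. A probe counts as well above background where the image software called it so. Means are given with the SD over 3 arrays, and the number of arrays limits the precision. Levels of a probe are compared between arrays, and its signal does not give the abundance of its transcript against that of another gene. Counts of all genes include each probe that matched no symbol as an entry of its own. For a list of markers the signals are summed over its probes and the brightest probe is named. Each sample is a whole tissue, in which fewer cells of a type and less RNA per cell cannot be told apart.

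Neutrophils mature in the bone marrow, where they fill with granules in a fixed order before entering the blood. Azurophil granules form at the promyelocyte stage and hold serine proteases and myeloperoxidase, specific and gelatinase granules follow with antimicrobial proteins and matrix-degrading enzymes, and the S100 proteins fill the cytosol of late stages. Transcripts of azurophil proteins are largely gone from mature blood neutrophils, while those of the S100 proteins persist, and some of these genes are also read in other cells, such as Chil3 in alveolar macrophages and Ltf in glandular epithelium.

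Before the results, several arrays have to be named. The markers of each labelled tissue were high on its own arrays, among them Alb in liver, Sftpc in lung, Umod in kidney and Adipoq in WAT. Aged lung 1 also carried hepatocyte genes. Its Alb level was 6.68, against -3.08, -0.53 and -2.82 in young lungs, and the 5 hepatocyte genes summed to 225 times the array's 75th percentile signal, against 7.34, 19.5 and 7.84 on the young lungs and 5.72 and 2.95 on aged lungs 2 and 3. The brightest probe was that of Alb on aged lung 1, Serpina1a on aged lung 2 and Cyp2e1 on the other lungs. Young WAT 1 carried the kidney gene Kap at 0.32 and Umod at -3.31, and the 5 kidney tubule genes summed there to 1.68, against 0.302 and 0.347 on the other young WAT arrays. In lung the adipocyte genes differed, with Adipoq at 2.76, 2.87 and 1.68 at 10 weeks and -6.86, -7.54 and -1.18 at 90 weeks, where aged lungs 1 and 2 were not well above background. The 5 adipocyte genes summed to 60.1, 62.3 and 36.9 on the young lungs and 9.56, 7.76 and 25.2 on the aged lungs, the brightest probe being that of Fabp4 or Cidec. In kidney they summed to 11.6, 14.1 and 12.4 on the young and 17.1, 19.9 and 19.1 on the aged arrays, with Adipoq at -2.98, -7.40 and -7.45 at 10 weeks and -3.35, -1.28 and -0.53 at 90 weeks, where young kidneys 2 and 3 were not well above background. The part of these tissue markers in the granule genes was not tested.

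The arrays on which the granule genes stood apart were aged liver 2, aged lung 2 and aged WAT 3. Each of these had the highest level of its aged group for all 10 genes. The labels give no detail of dissection or perfusion. Whether blood, bone marrow or another tissue was taken along in these samples is not known and was not tested. The gap from the highest to the next aged array had a median over the genes of 6.39 in liver, 3.88 in lung and 6.20 in WAT, in log2 units. In kidney, where Ngp was not well above background, the same gap over the other 9 genes was 0.37, with 7 genes highest on aged kidney 1 and 2 on aged kidney 2. As a median of the 10 genes, the level minus the young mean of the tissue was 2.62, 8.68 and 2.37 on the aged livers. It was 2.14, 4.93 and 1.28 on the aged lungs, -1.60, -0.06 and 6.53 on the aged WAT arrays and, over the 9 genes without Ngp, 1.53, 0.87 and 0.91 on the aged kidneys. Young WAT 3 stood at 2.90, above aged WAT 1 and 2. The signal summed over the 10 genes, in units of the array's 75th percentile signal, was 29.6, 1770 and 21.1 on the aged livers against 7.33, 4.60 and 10.1 on the young ones.

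**Figure D1:**
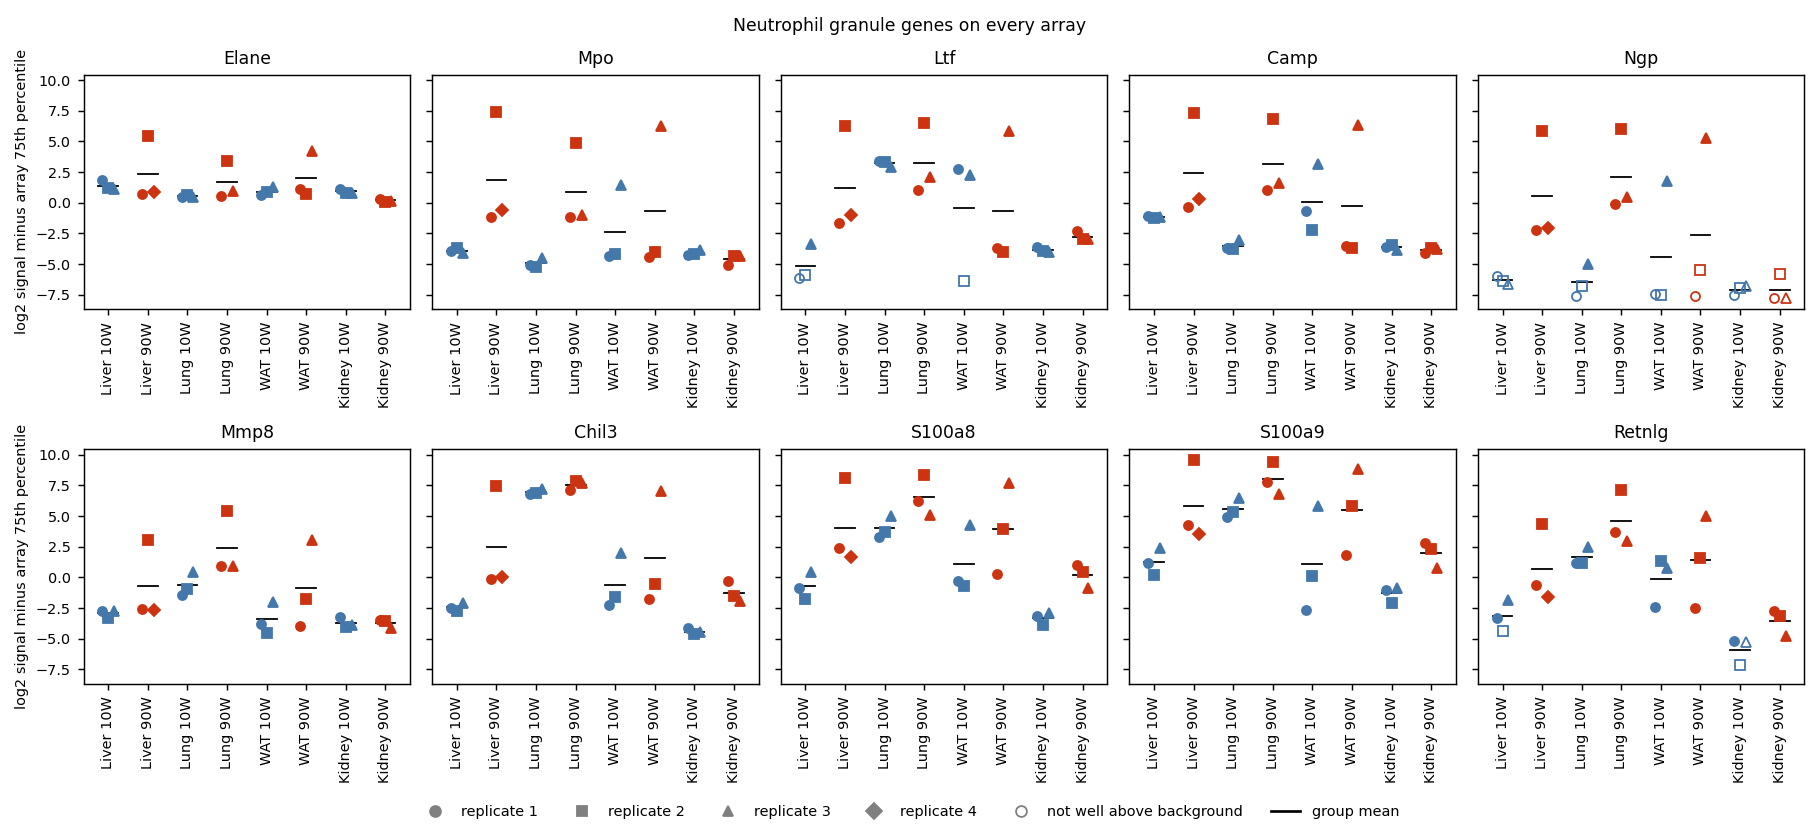
Each panel plots 1 gene on all 24 arrays, as the log2 signal minus the array's 75th percentile, with the tissue and age in weeks on the horizontal axis, blue for 10 and red for 90 weeks, symbols for replicates and a bar for the group mean. Aged liver 2, aged lung 2 and aged WAT 3 lie above the other arrays of their tissue in each panel.

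Elane and Mpo encode azurophil granule enzymes, the serine protease neutrophil elastase and the peroxidase that makes hypochlorous acid. Their transcripts mark the promyelocyte stage. In liver Elane (NM_015779) read 1.84, 1.22 and 1.14 on the young arrays and 0.70, 5.46 and 0.91 on the aged arrays. Aged liver 2 was far above the other 5 arrays, and aged livers 1 and 4 lay below the 3 young livers. The group means were 1.40 ± 0.38 in young and 2.36 ± 2.69 in aged mice (SD, n = 3), a difference of 0.96 that became -0.59 without aged liver 2. In lung the Elane levels were 0.48, 0.62 and 0.51 on the young arrays and 0.59, 3.41 and 0.98 on the aged arrays, and in WAT they were 0.63, 0.87 and 1.26 on the young arrays and 1.09, 0.71 and 4.21 on the aged arrays. Aged lung 2 and aged WAT 3 were again high, while the remaining aged arrays lay near the young ones. The lung difference of 1.13 became 0.25 without aged lung 2, and the WAT difference of 1.09 became -0.02 without aged WAT 3. In kidney Elane went the other way, with 1.12, 0.82 and 0.83 on the young arrays and 0.34, 0.09 and 0.14 on the aged arrays. The 3 aged kidneys lay below the 3 young ones, with a difference of -0.74.

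Mpo (NM_010824) had low levels in young liver and no overlap of the ages there, with -3.96, -3.66 and -4.09 on the young arrays and -1.17, 7.41 and -0.58 on the aged arrays. Aged livers 1 and 4 lay between the young livers and aged liver 2. The means were -3.90 ± 0.22 in young and 1.89 ± 4.80 in aged mice (SD, n = 3), a difference of 5.79, or 55.2-fold. It was 3.02 without aged liver 2 and 3.96 with normexp background correction. Lung followed the same order, since Mpo read -5.10, -5.22 and -4.48 on the young arrays and -1.13, 4.85 and -1.01 on the aged arrays. The ages did not overlap, and the difference of 5.84 was 3.87 without aged lung 2 and 6.86 without aged lung 1. In WAT the Mpo levels were -4.36, -4.20 and 1.43 on the young arrays and -4.40, -3.99 and 6.30 on the aged arrays. High values were on aged WAT 3 and young WAT 3, and the other 4 arrays were low and close together, so the difference of 1.68 turned into -1.82 without aged WAT 3. Kidney had Mpo at -4.23, -4.21 and -3.87 on the young arrays and -5.05, -4.36 and -4.38 on the aged arrays. Each aged kidney was below each young kidney, with a difference of -0.49.

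The stretches printed here are the 100 bases before the start of Elane and of its neighbour Prtn3, another azurophil protease, shown since both are azurophil protease genes. They come from RefSeq on the build GRCm38.p6, at chr10:79886212-79886311, plus strand, and chr10:79879567-79879666, plus strand, 5′ to 3′. Capitals mark AGGAAGT, the letters bound by ETS factors such as PU.1, and CAACGG, the letters bound by MYB.
Elane: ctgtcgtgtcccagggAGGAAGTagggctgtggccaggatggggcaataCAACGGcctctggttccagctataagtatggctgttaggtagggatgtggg
Prtn3: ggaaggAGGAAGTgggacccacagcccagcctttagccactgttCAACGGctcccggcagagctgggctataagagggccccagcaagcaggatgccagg
The motifs were chosen after the sequences were seen and were searched on both strands in the 250 bases before each start. All 10 genes had a promoter in the table. AGGAAGT or its reverse complement was in 5 of the 10 (Chil3, Elane, Mmp8, Mpo and S100a8) and in 7.69% of all 32851 promoters. CAACGG was in 1 of the 10, Elane, and in 4.05% of all promoters. The letters TGTGGT, read by RUNX factors, were in S100a9 alone of the 10 and in 4614 of all promoters. The letters of 1 motif do not overlap those of another in Elane or Prtn3. A match is a description, not a site or a cause.

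Ltf, Camp and Ngp encode specific granule proteins made at the myelocyte stage. Ltf is lactoferrin, an iron-binding protein, Camp is the precursor of the antimicrobial peptide CRAMP, and Ngp is a cystatin-like granule protein. Ltf (NM_008522) read -6.15, -5.93 and -3.36 on the young arrays and -1.64, 6.28 and -0.99 on the aged arrays in liver, where young livers 1 and 2 were not well above background. The aged livers lay above the young ones, with aged liver 2 far ahead. Background values were put at the dimmest signal the software called well above background on the same array. The difference was then at least 5.35, or at least 2.82 without aged liver 2, for the deposited signal after scaling. With normexp background correction Ltf differed by 3.69 in liver, less than 5.35. In lung its levels were 3.41, 3.35 and 2.90 on the young arrays and 1.05, 6.47 and 2.10 on the aged arrays. Aged lung 2 was above the young lungs and aged lungs 1 and 3 were below them, so a difference of -0.01 became -1.65 without aged lung 2 and 1.06 without aged lung 1. It was also positive without young lung 1 (0.08), young lung 2 (0.05) or aged lung 3 (0.54). WAT gave Ltf levels of 2.76, -6.38 and 2.28 on the young arrays and -3.70, -4.05 and 5.84 on the aged arrays. Young WAT 2 was not well above background and young WAT 1 and 3 were above aged WAT 1 and 2, so that the groups were interleaved. The WAT difference was -0.19, or -0.40 with young WAT 2 at the floor, and -3.43, or -3.64, without aged WAT 3, but positive without young WAT 1 (1.41), young WAT 3 (1.17), aged WAT 1 (1.34) or aged WAT 2 (1.51). Kidney levels of Ltf were -3.62, -3.96 and -3.99 on the young arrays and -2.32, -2.99 and -2.95 on the aged arrays, with the 3 aged above the 3 young arrays and means of -3.86 ± 0.20 in young and -2.75 ± 0.37 in aged mice (SD, n = 3).

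For Camp (NM_009921) the liver levels were -1.05, -1.25 and -1.16 on the young arrays and -0.37, 7.36 and 0.30 on the aged arrays. The young livers were close together and all aged livers were above them, aged liver 2 by far. Means were -1.15 ± 0.10 in young and 2.43 ± 4.28 in aged mice (SD, n = 3), and the difference of 3.58 was 1.12 without aged liver 2. In lung Camp read -3.70, -3.77 and -3.04 on the young arrays and 1.04, 6.85 and 1.58 on the aged arrays. All 3 aged lungs were well clear of the young lungs, with means of -3.50 ± 0.40 in young and 3.16 ± 3.21 in aged mice (SD, n = 3) and a difference of 6.66, or 101-fold. Without aged lung 2 it was 4.81, and without aged lung 1 it was 7.72. In WAT the levels were -0.71, -2.23 and 3.14 on the young arrays and -3.55, -3.68 and 6.38 on the aged arrays. Here aged WAT 1 and 2 were the lowest of the 6 arrays and aged WAT 3 the highest, and the difference of -0.35 was -3.68 without aged WAT 3. Without young WAT 3, aged WAT 1 or aged WAT 2 it was 1.19, 1.29 and 1.35. Its sign was positive, at 0.09, with normexp background correction. Kidney Camp levels overlapped between the ages, with -3.63, -3.43 and -3.82 on the young arrays and -4.09, -3.71 and -3.76 on the aged arrays.

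Ngp (NM_008694) was not well above background on any young liver. Its aged liver levels were -2.20, 5.89 and -2.02. All 3 were well above background, so Ngp was at least 34.6-fold higher in aged liver, against the same floor, and 5.45-fold without aged liver 2. The bound is for the deposited signal after scaling, and with normexp background correction the log2 difference was smaller, at 3.18. Lung levels of Ngp were -7.63, -6.82 and -4.96 on the young arrays and -0.12, 6.02 and 0.47 on the aged arrays. Young lungs 1 and 2 were not well above background and the 3 aged lungs were, so with the same floor the difference was at least 7.68, and at least 5.73 without aged lung 2. In WAT it was well above background on young WAT 3, at 1.75, and on aged WAT 3, at 5.32, and on no other WAT array. No kidney array had Ngp well above background, so no difference is given there.

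The 100 bases before the starts of Ltf, Ngp and Mmp8 are printed because these genes share the letters of C/EBP factors, TTGCNNAA or its reverse complement TTNNGCAA. Capitals mark TTNNGCAA in Ltf and Ngp and TTGCNNAA in Mmp8. The stretches lie at chr9:111019192-111019291, plus strand, at chr9:110419708-110419807, plus strand, and at chr9:7558329-7558428, plus strand, of GRCm38.p6.
Ltf: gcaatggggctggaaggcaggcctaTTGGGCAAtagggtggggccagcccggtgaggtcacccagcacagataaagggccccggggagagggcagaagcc
Ngp: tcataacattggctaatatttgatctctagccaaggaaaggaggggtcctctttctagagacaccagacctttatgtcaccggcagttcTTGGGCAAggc
Mmp8: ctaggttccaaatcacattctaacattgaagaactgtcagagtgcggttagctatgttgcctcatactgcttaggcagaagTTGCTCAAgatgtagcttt
TTGCNNAA or its reverse complement TTNNGCAA was in 5 of the 10 promoters (Ltf, Mmp8, Ngp, Retnlg and S100a9) and in 9.56% of all promoters, over 250 bases. The start of Camp lies on the same chromosome as these 3 genes, and S100a8, S100a9 and Chil3 lie on chromosome 3. For Camp and Chil3 the lack of a match says no more than that these letters are not in this window.

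Mmp8 encodes neutrophil collagenase, a protease that cuts fibrillar collagen. In liver Mmp8 (NM_008611) read -2.74, -3.30 and -2.72 on the young arrays and -2.55, 3.09 and -2.65 on the aged arrays. Aged liver 2 was high, and aged livers 1 and 4 were just above the young livers, with a difference of 2.22 that was 0.32 without aged liver 2. Lung levels were -1.43, -0.92 and 0.45 on the young arrays and 0.92, 5.43 and 0.90 on the aged arrays. The aged lungs lay above the young lungs, aged lungs 1 and 3 by less than the range of the young lungs, and the difference of 3.05 was 1.54 without aged lung 2. In WAT Mmp8 was -3.79, -4.49 and -1.98 on the young arrays and -3.96, -1.76 and 3.06 on the aged arrays. Aged WAT 3 stood apart, aged WAT 2 was near young WAT 3, and the difference of 2.53 was 0.56 without aged WAT 3 and 4.07 without aged WAT 1. The kidney values, -3.20, -4.04 and -3.86 on the young arrays and -3.49, -3.54 and -4.11 on the aged arrays, overlapped. Their difference of -0.02 was 0.23 without young kidney 1 and 0.18 without aged kidney 3.

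Chil3, also called Ym1, encodes a chitinase-like lectin of neutrophils and of macrophages. In liver Chil3 (NM_009892) read -2.50, -2.76 and -2.06 on the young arrays and -0.09, 7.48 and 0.00 on the aged arrays. The ages did not overlap, and the means were -2.44 ± 0.36 in young and 2.46 ± 4.35 in aged mice (SD, n = 3), a difference of 4.90 that was 2.39 without aged liver 2. Its lung levels were high at both ages, with 6.80, 6.92 and 7.25 on the young arrays and 7.11, 7.88 and 7.72 on the aged arrays. Aged lung 1 lay among the young lungs, and the difference was 0.58, or 0.42 without aged lung 2. In kidney Chil3 read -4.11, -4.65 and -4.49 on the young arrays and -0.28, -1.54 and -1.95 on the aged arrays. There the 3 aged arrays were all above the young arrays and none stood far apart, with means of -4.42 ± 0.28 in young and -1.26 ± 0.87 in aged mice (SD, n = 3) and a difference of 3.16, or 1.71 with normexp background correction. In WAT the levels were -2.23, -1.61 and 2.03 on the young arrays and -1.79, -0.52 and 7.06 on the aged arrays, with young WAT 3 above aged WAT 1 and 2, and the difference of 2.19 became -0.55 without aged WAT 3.

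S100a8 and S100a9 encode the subunits of calprotectin, a calcium-binding and metal-withholding protein of the neutrophil cytosol. In liver S100a8 (NM_013650) read -0.86, -1.73 and 0.41 on the young arrays and 2.40, 8.11 and 1.69 on the aged arrays. The aged livers were above the young ones, and the means of -0.73 ± 1.07 in young and 4.07 ± 3.52 in aged mice (SD, n = 3) differed by 4.79, or by 2.77 without aged liver 2. In lung it read 3.30, 3.74 and 4.97 on the young arrays and 6.20, 8.39 and 5.11 on the aged arrays. Young lung 3 came close to aged lung 3, the ages did not overlap, and the difference of 2.56 was 1.65 without aged lung 2. Kidney S100a8 was -3.11, -3.86 and -2.86 on the young arrays and 1.02, 0.44 and -0.89 on the aged arrays. All aged kidneys were above all young kidneys, with means of -3.28 ± 0.52 in young and 0.19 ± 0.98 in aged mice (SD, n = 3) and a difference of 3.47, or 11.1-fold. WAT gave -0.29, -0.71 and 4.26 on the young arrays and 0.28, 3.94 and 7.67 on the aged arrays. Young WAT 3 was above aged WAT 1 and 2, and the difference of 2.88 was 1.03 without aged WAT 3, 4.47 without young WAT 3 and 4.72 without aged WAT 1.

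For S100a9 (NM_001281852) the liver levels were 1.14, 0.20 and 2.40 on the young arrays and 4.26, 9.59 and 3.57 on the aged arrays. The aged livers were again above the young ones, with a difference of 4.56, or 2.67 without aged liver 2. Lung levels were 4.89, 5.38 and 6.50 on the young arrays and 7.77, 9.45 and 6.78 on the aged arrays, a difference of 2.41 with no overlap, and 1.68 without aged lung 2. Kidney levels were -1.02, -2.05 and -0.85 on the young arrays and 2.83, 2.33 and 0.78 on the aged arrays. The aged kidneys were above the young ones, and their means, -1.31 ± 0.65 in young and 1.98 ± 1.07 in aged mice (SD, n = 3), differed by 3.29. In WAT the levels of S100a9 were -2.62, 0.09 and 5.79 on the young arrays and 1.81, 5.85 and 8.87 on the aged arrays. The 6 arrays were spread over a wide range at both ages, young WAT 3 and aged WAT 2 were alike, and the difference of 4.42 was 2.74 without aged WAT 3, 2.57 without young WAT 1 and 6.77 without young WAT 3.

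Retnlg encodes a resistin-like secreted protein of myeloid cells. In liver Retnlg (NM_181596) read -3.30, -4.34 and -1.87 on the young arrays and -0.65, 4.39 and -1.57 on the aged arrays. Young liver 2 was not well above background, the aged livers were above the young ones, and the difference of 3.89 was 2.06 without aged liver 2. Lung gave 1.19, 1.22 and 2.52 on the young arrays and 3.74, 7.13 and 3.01 on the aged arrays. The ages did not overlap, with a difference of 2.98, or 1.73 without aged lung 2. In kidney Retnlg was -5.17, -7.18 and -5.29 on the young arrays and -2.76, -3.13 and -4.79 on the aged arrays, where young kidneys 2 and 3 were not well above background. With these at the floor the difference was at least 1.68, and normexp background correction gave 0.35. WAT levels were -2.44, 1.35 and 0.76 on the young arrays and -2.47, 1.59 and 5.03 on the aged arrays. Apart from aged WAT 3 the ages were mixed, and the difference of 1.49 became -0.33 without that array.

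Counted over the 10 genes, every aged array was above every young array for 9 genes in liver, where 16.8% of all genes tested had this order, and for 7 in lung, where 11.6% had it. In kidney it held for 5 of the 10, beside 23.1% of all genes, and 2, Elane and Mpo, had the opposite order, beside 47.6% of all genes. WAT had no granule gene in this order, beside 13.7% of all genes. Nothing is read from these counts, since the genes were selected on this contrast. The median difference of the 10 genes was 4.68 in liver, 2.77 in lung, 1.102 in kidney over the 9 genes without Ngp, which was at background there, and 1.68 in WAT over the 9 genes without Ngp, which was at background on 4 of 6 arrays there. With Ngp the medians were 0.54 in kidney and 1.75 in WAT. Putting background values at the floor given for Ngp leaves the liver median over all arrays between S100a8 and S100a9. Without aged liver 2 the median was 2.53, and 2.42 with background values at the floor. Without aged lung 2 it was 1.67, without aged lung 1 it was 3.09, and without aged WAT 3 it was -0.33 over the same 9 genes. Over all genes tested the median age difference was -0.20 in liver, -0.08 in lung, -0.23 in kidney and -0.05 in WAT. Scaling to the spike-in probes moved these medians to -0.09, -0.18, 0.16 and -0.05, and under it the kidney differences of Camp and Mmp8 turned positive, from -0.23 and -0.02 to 0.16 and 0.38. The kidney difference of Mpo was -0.10 and that of Elane -0.34 with spike-in scaling. With normexp background correction differences of dim probes were smaller, among them Ltf in liver (3.69) and in kidney (0.41), Mmp8 in liver (1.43) and Retnlg in liver (2.58). Mpo (4.25), Camp (5.81) and Ngp (5.56) in lung and S100a8 in kidney (2.68) also differed by less. Ngp in liver and lung, Ltf in liver and Retnlg in kidney differed by less than their bounds above.

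**Figure D2:**
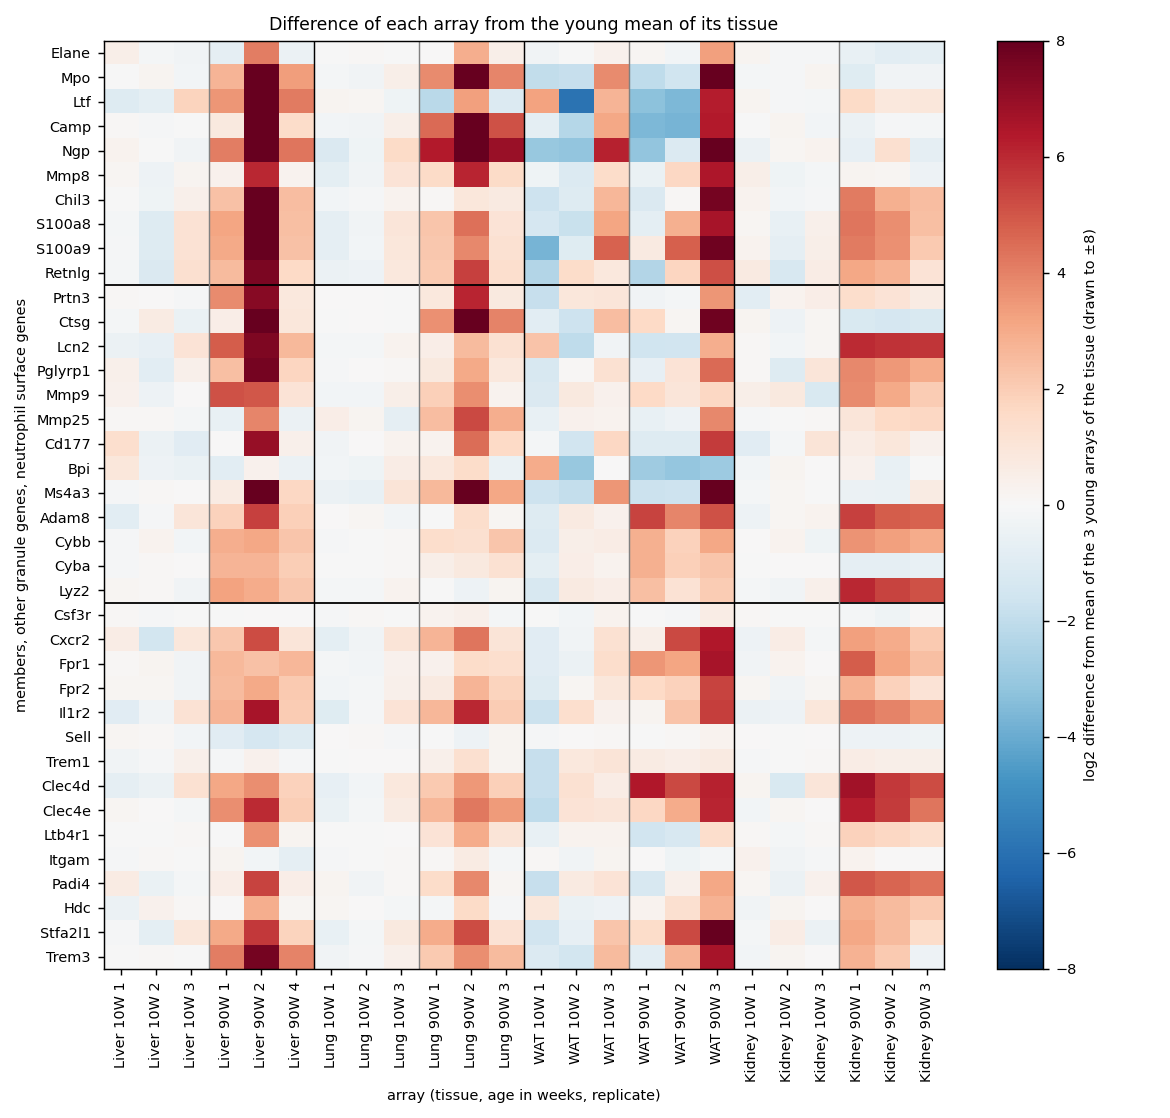
Each cell is the level of a gene (vertical axis: the 10 genes, other granule genes, neutrophil surface genes) on an array (horizontal axis) minus the mean of the tissue's 3 young arrays, in log2 units, with the colours drawn to ±8. The columns of aged liver 2, aged lung 2 and aged WAT 3 are red in the upper block, in shades that run from pale (Chil3 in lung) to dark, and in kidney S100a8, S100a9 and Chil3 are red on all 3 aged arrays.

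A list of 14 other granule genes was read beside them, of which Olfm4 matched no probe and 13 had values. Limma, with Benjamini-Hochberg adjustment and a threshold of 0.05, called 5 of 9 tested higher in aged liver, where 10.5% of all genes were called higher and 17% lower. In lung it called 1 of 10 higher, beside 2.72% of all genes higher and 2.89% lower. In kidney 6 of 9 were called higher and 2 lower, beside 20.6% and 42.6% of all genes. In WAT 1 of 10 was called higher, beside 2.01% of all genes higher and 0.579% lower. Summed over the 13 genes the signal was 152, 681 and 55.1 times the 75th percentile signal on the aged livers against 11.1, 11.9 and 15.5 on the young livers. The brightest probe was that of Lcn2 on aged liver 1 and 2, with a log2 level of 9.02 on aged liver 2, and that of Cyba on the other livers. Leaving out 1 array at a time gave between 3 and 6 calls in liver, 0 and 4 in lung, 5 and 7 in kidney, and 0 and 1 in WAT, the 3 in liver without young liver 1, without young liver 2 or without aged liver 1. Over all alternatives they were 3 to 8 in liver, 0 to 4 in lung, 5 to 7 in kidney and 0 to 4 in WAT. In lung the calls were 4 without aged lung 2, 2 without aged lung 1 and 0 without young lung 1, 2 or 3, and in WAT 0 without young WAT 3, aged WAT 1 or aged WAT 3. With all arrays limma had 5 of 10 higher in lung and 5 of 10 in WAT at an unadjusted p under 0.05, beside 9.19% and 9.86% of all genes.

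Lcn2 encodes lipocalin 2, a siderophore-binding protein of specific granules that epithelia also make. In kidney Lcn2 read -0.85, -1.18 and -0.80 on the young arrays and 5.01, 4.86 and 4.76 on the aged arrays. The 3 aged kidneys were close together and above the young ones (difference 5.82 ± 0.13 (SE), limma adjusted p = 9.07e-06, higher in 3 of 3 aged arrays). In liver it read 1.08, 0.93 and 2.67 on the young arrays and 6.41, 9.02 and 4.17 on the aged arrays, higher in 3 of 3 aged arrays (difference 4.97 ± 1.14 (SE), limma adjusted p = 0.023). Over the alternatives the liver adjusted p ranged from 8.02e-05 to 0.101, and it missed 0.05 without young liver 1, young liver 2 or aged liver 1 (0.0734, 0.0779 and 0.0537). Lyz2, the lysozyme of granules and of macrophages, had kidney levels of -2.02, -2.16 and -1.50 on the young arrays and 4.15, 3.51 and 3.20 on the aged arrays. It rose in kidney in 3 of 3 aged arrays (difference 5.51 ± 0.29 (SE), limma adjusted p = 6.47e-05), and in liver, where the aged arrays read 3.91, 3.63 and 2.81 against 0.85, 0.81 and 0.40 (difference 2.76 ± 0.30 (SE), limma adjusted p = 0.00287). Cybb, the oxidase subunit of specific granule membranes, was higher on 3 of 3 aged arrays in liver (difference 3.20 ± 0.20 (SE), limma adjusted p = 0.00148) and in lung (difference 1.63 ± 0.25 (SE), limma adjusted p = 0.0259). Over all alternatives the lung adjusted p was 0.0211 to 0.121. The lung call was lost without young lung 1, 2 or 3, with adjusted p between 0.0872 and 0.121. Mmp9, gelatinase B, was not well above background on any young liver and was at least 11.3-fold higher in aged liver, or 6.98-fold without aged liver 1, 7.38-fold without aged liver 2 and 27.9-fold without aged liver 4, with a lowest log2 difference of 1.60 over the alternatives. Genes such as this, at background on all young arrays, passed the filter through the aged arrays, so their bounds are given with no test. They are among the calls counted, and without the filter limma called 5 of these list genes higher in liver and 7 in kidney. Counting genes well above background on at least 1 array of each age, limma called 4 of 8 other granule genes higher in liver, beside 9.04% of all such genes, 1 of 10 in lung, beside 2.65%, 5 of 8 in kidney, beside 18.2%, and 1 of 10 in WAT, beside 1.57%. In kidney 2 were lower, beside 43.9%.

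In kidney Adam8, a metalloprotease, was also higher on 3 of 3 aged arrays (difference 5.01 ± 0.25 (SE), limma adjusted p = 5.59e-05). Pglyrp1, a peptidoglycan-binding protein, was at background on 2 of 3 young kidneys, and with these at the floor its difference was 3.01, with 1.23 to 3.91 over the alternatives. Adam8 was the call in WAT, at 0.39, 2.12 and 1.77 on the young arrays and 6.81, 5.33 and 6.54 on the aged arrays (difference 4.81 ± 0.58 (SE), limma adjusted p = 0.0185). The 3 aged WAT arrays were all above the young ones, and without young WAT 3, aged WAT 1 or aged WAT 3 its adjusted p was 0.057, 0.0966 and 0.0933, within 0.000191 to 0.142 over all alternatives. Ms4a3 and Cd177, markers of granulocyte progenitors and of neutrophil granule membranes, had the profile of the single arrays. Ms4a3 read -5.92, 3.52 and -4.93 on the aged livers, -4.80, 1.26 and -4.34 on the aged lungs and -7.57, -7.50 and 2.58 on the aged WAT arrays. Among these it was well above background on aged liver 2, aged lungs 2 and 3 and aged WAT 3, and on young WAT 3 among the young arrays. On the kidney arrays Ms4a3, Cd177 and Bpi were not well above background at either age. The azurophil proteases Prtn3 and Ctsg were also highest on these arrays, with Prtn3 at 0.15, 3.65 and -2.82 and Ctsg at -2.23, 5.96 and -1.87 on the aged livers, while in kidney Ctsg read -4.23, -4.87 and -4.32 on the young arrays and -5.67, -5.79 and -5.72 on the aged arrays.

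Of 16 genes of the neutrophil surface and of late neutrophils, Ly6g matched no probe and 15 had values. Limma called 6 of 15 higher and 1 lower in aged liver, 2 of 15 higher in aged lung, 11 of 14 higher and 1 lower in aged kidney, and 1 of 15 higher in aged WAT. Over all genes 10.5% were called higher and 17% lower in liver, 2.72% higher in lung, 20.6% higher and 42.6% lower in kidney, and 2.01% higher in WAT. Counting genes well above background on at least 1 array of each age, 3 of 12 were called higher in liver, 2 of 15 in lung, 7 of 10 in kidney and 1 of 15 in WAT, beside the shares of all such genes given above, and 1 was lower in liver, beside 17.0%, and 1 in kidney. Over all alternatives the calls higher were 2 to 8 in liver, 0 to 4 in lung, 6 to 12 in kidney and 0 to 6 in WAT. With 1 array left out the calls higher numbered 2 to 4 in liver, 0 to 4 in lung, 7 to 11 in kidney and 0 to 1 in WAT. The liver calls were 2 without aged liver 1 and 3 without young liver 1 or young liver 2, and the kidney calls were 7 without aged kidney 1, 2 or 3. In lung there were 0 without young lung 1, 2 or 3 and 4 without aged lung 1, and in WAT 0 without young WAT 3 or aged WAT 1, 2 or 3. With all arrays limma had 10 of 15 higher in lung and 7 of 15 in WAT at an unadjusted p under 0.05, beside 9.19% and 9.86% of all genes. Summed over the 15 genes the signal was 80.3, 105 and 76.9 times the 75th percentile signal on the aged livers and 70.1, 64.0 and 65.1 on the young livers. The brightest probe was that of Csf3r, at 5.81, 5.61 and 5.67 on the young and 5.64, 5.70 and 5.73 on the aged livers. As a median of the level minus the young mean, the 15 genes stood at 2.16, 3.65 and 0.97 on the aged livers. These medians were 1.08, 2.94 and 1.04 on the aged lungs, 2.87, 2.53 and 1.48 on the aged kidneys and 0.27, 1.84 and 5.43 on the aged WAT arrays.

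Clec4d and Clec4e are C-type lectin receptors of myeloid cells. In kidney Clec4d was at background on 2 of 3 young arrays, and with these at the floor its difference was 5.10, with 2.95 to 6.35 over the alternatives. Clec4d was also the WAT call, with -3.55, -0.46 and -1.07 on the young arrays and 4.70, 3.61 and 4.44 on the aged arrays (difference 5.94 ± 0.82 (SE), limma adjusted p = 0.0258, 3 of 3). Its WAT adjusted p lay between 3.69e-05 and 0.151 over the alternatives, at 0.0723, 0.134, 0.0717 and 0.103 without young WAT 3 or aged WAT 1, 2 or 3. Clec4e was at background on all young kidneys and young livers, and was at least 8.31-fold higher in aged kidney and at least 9.05-fold higher in aged liver, the latter 4.42-fold without aged liver 2 and 17.4-fold without aged liver 4. Clec4e in lung read -1.83, -1.46 and -0.67 on the young arrays and 1.36, 2.90 and 2.09 on the aged arrays (difference 3.44 ± 0.46 (SE), limma adjusted p = 0.0201, 3 of 3), and missed 0.05 without young lung 1, 2 or 3 (0.0914, 0.0916 and 0.0549), within a range of 0.00928 to 0.0916 over all alternatives. Trem3, a receptor of myeloid cells, was at least 7.88-fold higher in aged liver, or 3.39-fold without aged liver 2, 11.8-fold without aged liver 1 and 12.2-fold without aged liver 4. Padi4, which citrullinates histones in neutrophils, was at least 8.65-fold higher in aged kidney. Over the alternatives the lowest log2 differences of these genes were below their bounds, at 1.497 for Clec4e and 1.30 for Padi4 in kidney, and 1.49 for Clec4e and 1.53 for Trem3 in liver. Il1r2, a decoy receptor, was at background in kidney on 2 of 3 young arrays and differed there by 3.84 with these at the floor, and by 1.85 to 4.36 over the alternatives. Other calls were Clec4d in liver (difference 2.91 ± 0.64 (SE), limma adjusted p = 0.0201, 3 of 3, and 0.000263 to 0.0918 over the alternatives) and Trem3 in lung (difference 2.79 ± 0.44 (SE), limma adjusted p = 0.028, 3 of 3, and 0.0174 to 0.342 over the alternatives). Clec4d in liver missed 0.05 without young liver 1, young liver 2 or aged liver 1 (0.0661, 0.0723 and 0.0532), and Trem3 in lung without young lung 1, 2 or 3 or aged lung 3 (0.123, 0.113, 0.0817 and 0.0544). Stfa2l1 was at background on all young livers and at least 5.12-fold higher in aged liver, or 6.02-fold without aged liver 1, 2.43-fold without aged liver 2 and 9.19-fold without aged liver 4, with a lowest log2 difference of 0.80 over the alternatives.

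The last neutrophil list held 11 genes of neutrophil production and recruitment, among them transcription factors, chemokines and the chemokine receptor Cxcr4. Limma called 9 of 10 higher in aged kidney, 3 of 9 in aged liver and 2 of 9 in aged lung, beside 20.6%, 10.5% and 2.72% of all genes. In WAT, with 2.01% of all genes, it called 0 of 10, with 4 higher at an unadjusted p under 0.05, beside 9.86% of all genes. Counting genes well above background on at least 1 array of each age, 7 of 8 were called higher in kidney, beside 18.2% of all such genes, 2 of 7 in liver, beside 9.04%, 2 of 9 in lung, beside 2.65%, and 0 of 10 in WAT, beside 1.57%. Over all alternatives the calls were 5 to 9 in kidney, 0 to 5 in liver, 0 to 2 in lung and 0 to 4 in WAT. With 1 array left out the calls were 5 to 9 in kidney, the 5 without aged kidney 2, and 0 to 2 in liver and in lung. The liver calls were 0 without aged liver 2, and 1 without young liver 1, young liver 2 or aged liver 1. In lung they were 0 without young lung 1 or 2, and 1 without young lung 3, aged lung 1 or aged lung 3. With all arrays 5 of 9 in liver and 2 of 9 in lung were higher at an unadjusted p under 0.05, beside 14.9% and 9.19% of all genes. The chemokine Cxcl5, which draws neutrophils, was not well above background on any young kidney and read 1.47, 1.04 and 1.03 on the aged kidneys, at least 98.2-fold higher than the young ones. Cxcl1, another chemokine of the list, read -3.06, -3.08 and -0.82 on the young arrays and 2.35, 3.39 and 2.85 on the aged arrays in kidney (difference 5.19 ± 0.65 (SE), limma adjusted p = 0.000998, 3 of 3). Cxcl2 was at least 4.53-fold higher in aged kidney. Over the alternatives the lowest log2 difference was 4.01 for Cxcl5 and 0.77 for Cxcl2, below these bounds. Gfi1, a repressor needed for neutrophil maturation, was at background on 2 of 3 young kidneys and differed by 3.22 with these at the floor, and by 1.37 to 4.57 over the alternatives. Gfi1 in lung (difference 2.14 ± 0.42 (SE), limma adjusted p = 0.0449, 3 of 3) and Cxcr4 in lung (difference 0.80 ± 0.09 (SE), limma adjusted p = 0.0147, 3 of 3) were called, with adjusted p of 0.041 to 0.298 and 0.0117 to 0.59 over the alternatives. Gfi1 missed 0.05 without young lung 1, 2 or 3 or aged lung 1 or 3 (0.164, 0.0972, 0.131, 0.0607 and 0.0647), and Cxcr4 without young lung 1 or 2 (0.0858 and 0.0823). In liver Cxcl1 was called (difference 2.73 ± 0.81 (SE), limma adjusted p = 0.0463, 3 of 3, and 0.000845 to 0.149 over the alternatives), but not without young liver 1, 2 or 3 or aged liver 1 or 2 (0.0543, 0.135, 0.103, 0.06 and 0.0669). Cxcl5 was at least 2.17-fold higher in aged liver, and Cxcr4, at background on 2 of 3 young livers, differed by 2.87 with these at the floor. Over the alternatives Cxcl5 in liver differed by 0.12 to 2.45 and Cxcr4 by 1.20 to 4.29, the latter called in 7 of 13. Cebpe, the factor of specific granule genes, read 2.91, 4.12 and 2.60 on the aged livers, -1.27, 2.95 and -1.96 on the aged lungs and -3.17, -2.04 and 3.18 on the aged WAT arrays. In each of these tissues the aged array with the highest granule genes was also the highest aged array for Cebpe. Young means of Cebpe were 2.98 ± 0.12 in liver, -2.94 ± 0.55 in lung and 0.04 ± 1.23 in WAT (SD, n = 3). Aged livers 1 and 4 and aged WAT 1 and 2 lay below the young means of their tissues, and the 3 aged lungs lay above theirs. Csf3, the cytokine that drives neutrophil output, was not well above background on the liver, lung and kidney arrays. On aged WAT 3 all 11 genes of the list, Csf3 among them, were well above background.

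Marker lists of other blood cells were read on the same arrays, and their part in the granule gene levels was not tested. The 6 B cell genes, as a median of the level minus the young mean, stood at 1.37, -1.96 and 1.03 on the aged lungs and 1.73, -0.32 and 0.45 on the aged livers, lowest on aged lung 2 and aged liver 2. They stood at 1.65, 1.73 and 1.19 on the aged kidneys and 2.71, 3.33 and 2.45 on the aged WAT arrays. Summed, they came to 29.4, 3.22 and 23.0 times the 75th percentile signal on the aged lungs and 6.59, 1.85 and 4.74 on the aged livers, the brightest probe being that of Cd79b. The 6 monocyte genes had medians of 1.56, 3.23 and 1.65 on the aged livers, 0.07, 0.28 and 0.21 on the aged lungs, 2.41, 2.80 and 1.94 on the aged kidneys and -0.34, -0.14 and 0.04 on the aged WAT arrays, the brightest probe being that of Ly6c2. The 9 alveolar macrophage genes, which include genes that liver also reads, had -0.02, -0.48 and 0.73 on the aged lungs, 1.74, 1.80 and 1.89 on the aged livers, 4.06, 3.67 and 3.28 on the aged kidneys and -0.25, -0.37 and -0.46 on the aged WAT arrays, the brightest lung probe being that of Ear2. The 10 eosinophil, mast cell and basophil genes had -0.47, 1.97 and 0.03 on the aged livers, 1.39, 0.42 and 1.33 on the aged lungs, 0.07, 0.39 and 0.28 on the aged kidneys and 2.43, 2.41 and 3.34 on the aged WAT arrays. On aged liver 2 the B cell gene Cd79a was not well above background. The 6 platelet and megakaryocyte genes had medians of 2.07, 4.43 and 1.06 on the aged livers, 1.51, 2.43 and 1.73 on the aged lungs, 0.55, 0.02 and 0.35 on the aged kidneys and 0.76, 0.32 and 0.74 on the aged WAT arrays, and sums of 58.3, 25.05 and 17.7 on the livers and 19.6, 37.4 and 39.7 on the lungs, the brightest probe being that of Pf4. Of 14 erythroid genes Hbb-bs matched no probe. The other 13 had medians of -0.05, 0.30 and -0.49 on the aged livers, 1.04, 2.56 and 0.58 on the aged lungs, -0.50, -0.95 and -0.78 on the aged kidneys and 0.02, -0.71 and 0.65 on the aged WAT arrays, and their sum was 588, 981 and 684 on the aged lungs against 53.5, 233 and 255 on the young lungs, the brightest probe being that of Hba-a1.

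**Figure D3:**
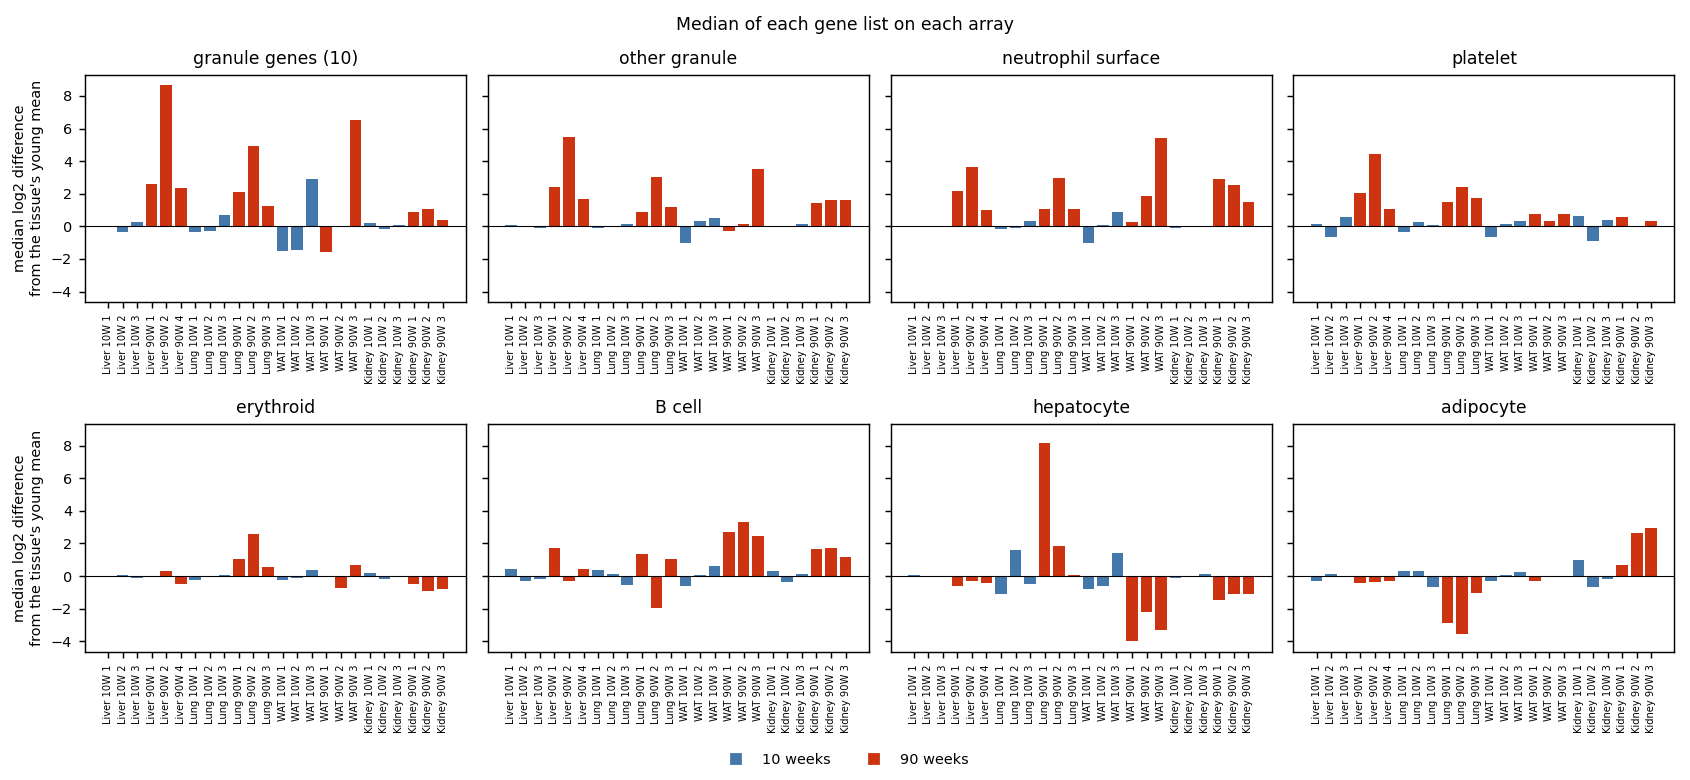
Bars give, for each of 24 arrays on the horizontal axis, the median over a gene list of the level minus the mean of the tissue's 3 young arrays, in log2 units, in blue for 10 and red for 90 weeks. The 10 granule genes reach 8.68 on aged liver 2, 4.93 on aged lung 2 and 6.53 on aged WAT 3, and the hepatocyte genes reach 8.13 on aged lung 1.

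How alike the 10 genes were was described over the 24 arrays, with each tissue's mean subtracted. Arrays of a tissue share a slide, and single arrays weigh heavily in such a measure, so it carries no p. Pearson's r of the 45 pairs of granule genes ran from 0.60 to 0.98 with a median of 0.81. Without aged liver 2, aged lung 2 and aged WAT 3, a choice made after the data were seen, it ran from -0.12 to 0.97 with a median of 0.52. Among 19270 other genes the 10 most like the mean of the granule genes were Ms4a3 (r = 0.96), Cd177, Itgb2l, Epx, Scrg1, Trem3, Mcemp1, Fcnb, Pram1 and Stfa1 (r = 0.92). Over the 21 remaining arrays their r fell between 0.64 for Fcnb and 0.87 for Trem3. Of these arrays Fcnb and Epx were well above background on young WAT 3 alone, and Ms4a3 on young WAT 3 and aged lung 3. The r of these genes there rests mostly on background values. Fcnb and Epx passed the filter of 3 arrays well above background only through arrays with high granule genes. Epx, the eosinophil peroxidase gene, read -7.16, -0.09 and -5.73 on the aged livers, -5.47, -1.33 and -6.63 on the aged lungs and -7.80, -7.93 and -1.79 on the aged WAT arrays. It was well above background on aged liver 2, aged lung 2, young WAT 3 and aged WAT 3.

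**Figure D4:**
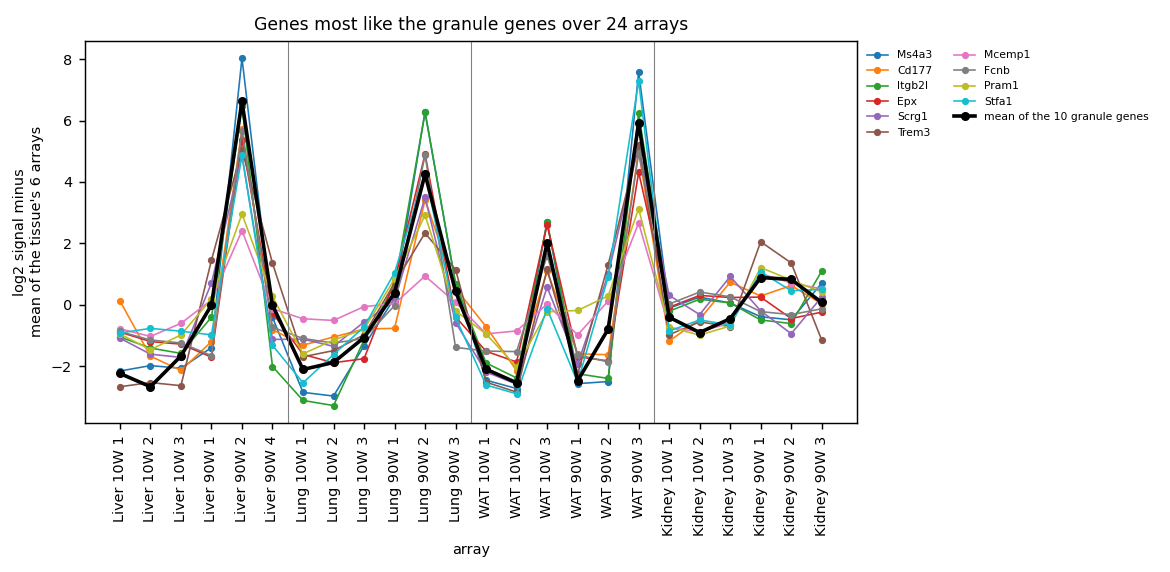
Lines follow the 10 genes most like the granule genes over the 24 arrays on the horizontal axis, as the log2 signal minus the mean of the tissue's 6 arrays, and the black line is the mean of the 10 granule genes. The lines peak together on aged liver 2, aged lung 2 and aged WAT 3, and a smaller peak is on young WAT 3.

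The young arrays also allow a comparison that the selection did not use, young lung against the mean of the other young tissues, though it shares the young arrays with the age comparison. It asks at which level these genes are read in lung, whose capillaries and airspaces hold many myeloid cells. Of the 10 genes 9 were tested, Ngp being too dim, and limma called 6 higher in young lung, beside 25.3% of 33274 entries, and 1 lower, beside 41.8%. With spike-in scaling it called 7 of the 9 and 21405 of all genes higher, and 3520 of all genes lower. The median difference over all genes was -0.25, and 0.86 when arrays were scaled to the spike-in probes. For Chil3 the levels were 6.99 ± 0.23 in lung, -2.44 ± 0.36 in liver, -4.42 ± 0.28 in kidney and -0.61 ± 2.30 in WAT (SD, n = 3). Each young lung was above each of the other 9 young arrays (difference 9.48 ± 0.71 (SE), limma adjusted p = 1.24e-06). Ltf was 3.22 ± 0.28 in lung, -5.15 ± 1.55 in liver, -3.86 ± 0.20 in kidney and -0.44 ± 5.15 in WAT (SD, n = 3). The WAT arrays were spread over a wide range and the other tissues were low (difference 6.37 ± 1.61 (SE), limma adjusted p = 0.00524), and 3 of 3 lungs were above the other 9 arrays. S100a8 (4.98 ± 0.93 (SE), limma adjusted p = 0.000864), S100a9 (5.25 ± 1.36 (SE), limma adjusted p = 0.00611), Retnlg (4.70 ± 0.82 (SE), limma adjusted p = 0.000544) and Mmp8 (2.71 ± 0.51 (SE), limma adjusted p = 0.000921) were higher by these differences.

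Not every lung array was above every other young array for S100a8, S100a9 and Retnlg, since young WAT 3 had S100a8 at 4.26 and S100a9 at 5.79, within the range of the lungs, and young WAT 2 had Retnlg at 1.35. For Mmp8 3 of 3 lungs were above the other 9 arrays, and its adjusted p ran from 3.94e-05 to 0.07 over the alternatives, missing 0.05 with all 24 arrays in 1 fit. Elane was the gene called lower (difference -0.55 ± 0.17 (SE), limma adjusted p = 0.0167), with each lung below each other young array, but its sign turned to 0.56 (limma adjusted p = 0.0241) with spike-in scaling. It missed 0.05 without young lung 1 and without young lung 3, at limma adjusted p of 0.062 and 0.0561, and over all alternatives its adjusted p ran from 0.00777 to 0.572. Mpo (-1.47 ± 1.00 (SE), limma adjusted p = 0.214) and Camp (-1.93 ± 0.84 (SE), limma adjusted p = 0.0635) were not called, with adjusted p of 0.00238 to 0.746 and 0.00211 to 0.374 over the alternatives. Camp was called lower without young WAT 2, at -2.32 (limma adjusted p = 0.00955). Without young WAT 3 both were called lower, at -0.84 (limma adjusted p = 0.00238) and -1.42 (limma adjusted p = 0.00211). For all tested granule genes but Elane the SD was widest in WAT among the 4 young tissues. The same comparison called 7 of 10 other granule genes higher and 2 lower in young lung, 12 of 15 neutrophil surface genes higher and 1 lower, and 8 of 9 alveolar macrophage genes higher and 0 lower, beside 25.3% of all genes higher and 41.8% lower.

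**Figure D5:**
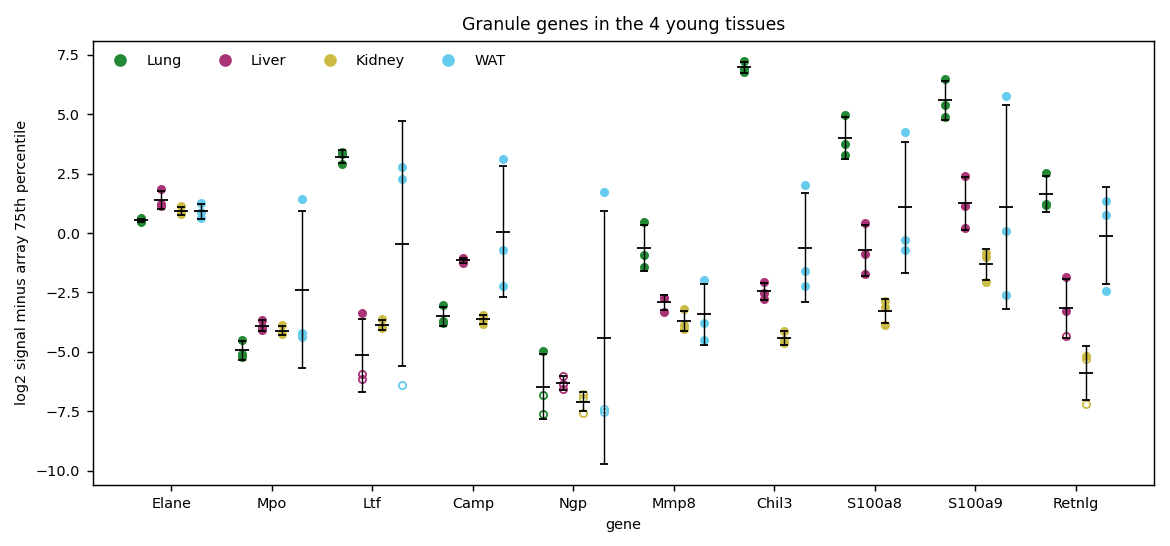
Points are the 3 young arrays of each tissue, as the log2 signal minus the array's 75th percentile on the vertical axis, with open points not well above background and bars for the mean and SD. Lung points lie above those of liver and kidney for Ltf, Mmp8, Chil3, S100a8, S100a9 and Retnlg.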

How the data were processed

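RNA of 4 tissues from 24 arrays was read with 3 arrays per age and tissue. The intensity of each spot comes from the authors: Agilent Feature Extraction 11.0.1.1, per the file headers, wrote a background-subtracted signal for each of 62976 spots, in arbitrary units that are not scaled between arrays. The headers name a mouse design on mm9, while the study's methods name a human kit. Probe names were matched to RefSeq genes of GRCm38.p6, and 32994 of 56605 probes (58.3%) matched. In all 1841 outlier spots, at most 135 on an array, were left out. The deposited intensity was put on the log2 scale and each array's 75th percentile was subtracted. Between 58.6% and 71.1% of probes were well above background. Ages were compared in each tissue with limma 3.58.1 in R 4.3.3 and Benjamini-Hochberg adjustment over all genes, with probes well above background on at least 3 arrays, and 12 young arrays were compared in the same way. The fit was tested on simulated data. The granule genes and the lists were chosen with earlier results of these data known. The naming rule took the 10 genes, of each list the called genes with the largest change, at most 4 per tissue, listed markers below background, and the 10 genes most like them. Called genes of the lists of other cells and tissues are not all printed. Genes named otherwise (Cebpe, Cd79a, Epx, Prtn3, Ctsg and the tissue markers) were chosen after their values were seen. Alternatives were normexp correction with an offset of 50, quantile normalization, scaling to 7 spike-in probes, no filter, averaging the probes of each gene, 1 fit of all 24 arrays, the replicate block, the methods' unpaired test and each array left out. Whether 1 mouse gave several tissues is not known.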

Additional observations from a re-analysis of the deposited data

Results flagged for a closer look

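Some genes had every aged kidney below every young kidney while another tissue had the opposite order. The difference between tissues was not tested for any of them. Of 30091 genes tested in kidney and another tissue, 6.98% had such orders, and 1.84% with spike-in scaling. Mpo differed by -0.49 between the ages in kidney, and by 5.79 in liver and 5.84 in lung. Without aged kidney 1 the kidney difference was -0.26, without aged liver 2 that in liver was 3.02, and without aged lung 2 that in lung was 3.87. With spike-in scaling Mpo differed by -0.10 in kidney and the order was lost there. Ctsg, the gene of the azurophil protease cathepsin G, differed by -1.25 in kidney, -0.86 with spike-in scaling, and by 5.77 in lung, where young lung 1 was at background, and 3.80 without aged lung 2. Cyba, an oxidase subunit gene, differed by -0.67 in kidney, -0.28 with spike-in scaling, and by 2.47 in liver, 0.83 in lung and 2.31 in WAT.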

How the results depend on the processing

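Called genes are counted by limma at an adjusted p under 0.05. In liver 2928 were higher and 4749 lower, and quantile normalization and the mean of probes stayed within 1.5 times of both counts. Calls lower were 7593 with normexp, 973 with spike-in scaling, 12841 without the filter and 7575 with all 24 arrays in 1 fit. The methods' unpaired test gave 1321 and 1785, and leaving out 1 array gave 1498 to 2335 higher and 889 to 4551 lower, fewest without young liver 2. In lung 825 were higher and 875 lower. Without the filter they were 304 and 136, with all 24 arrays in 1 fit 548 and 342, with the methods' test 99 and 132, and with normexp 498 lower. Leaving out 1 lung array gave 1 to 1066 higher and 1 to 909 lower, the 1 in both without young lung 1, and 17 and 8 without young lung 2, 140 and 64 without young lung 3. In kidney 6483 were higher and 13410 lower, and spike-in scaling gave 4392 lower, the other alternatives staying within 1.5 times. In WAT 605 were higher and 174 lower. These were 3179 and 3029 with all 24 arrays in 1 fit, 76 lower without the filter, and 1 and 0 with the methods' test, and limma's counts with 1 array left out were 62 to 494 and 10 to 88, fewest without aged WAT 3 and without aged WAT 1. In young lung 8426 were higher and 13910 lower, 21405 and 3520 with spike-in scaling, and 21342 lower without the filter. The cause was not tested for any of these.

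The replicate block, fitted on the arrays whose number both ages have, gave 937 higher and 619 lower in liver, 1 and 0 in lung, and 323 and 41 in WAT. The correlation of arrays with the same number across ages lay between -0.17 and 0.18, and the numbers were not taken as pairs. It is not one of raw levels, which correlated between 0.93 and 0.99 within each tissue and age.

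The median difference of the 10 genes kept its sign in liver and lung under all alternatives run. In kidney, with Ngp at background among them, it was 0.54, 0.019 with normexp and 0.93 with spike-in scaling. In WAT it was 1.75, and -0.44 to 3.70 with 1 array left out, and without Ngp 1.68, and -0.33 to 3.53. Single genes changed sign as follows, with 1 array left out: Elane in liver (-0.59 to 1.79), Ltf in lung (-1.65 to 1.06), Mmp8 in kidney (-0.18 to 0.23), and in WAT Elane (-0.018 to 1.73), Mpo (-1.82 to 3.58), Ltf (-3.43 to 1.51), Camp (-3.68 to 1.35), Ngp (-2.13 to 4.90, resting on background values on 4 of 6 arrays), Chil3 (-0.55 to 3.88) and Retnlg (-0.33 to 3.42). Camp and Mmp8 in kidney turned to 0.16 and 0.38 with spike-in scaling, and Camp in WAT to 0.091 with normexp. Of listed genes called in kidney, Mcpt4 turned to -0.12 and Epb42 to -0.27 with normexp, and Ager to 0.79 with the mean of probes. Elane in young lung turned to 0.56 with spike-in scaling. The number of granule genes called higher in young lung was 6 with any 1 array left out. The cause was not tested.

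The methods' test kept 48 of the named calls and lost 53. Counting each named call once for each array left out, 380 were kept and 187 lost. Dim probes limit the values, since between 58.6% and 71.1% of probes were well above background, and 3 arrays per group limit the precision.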
